A study of Mus musculus with 23 samples.

Results

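The colon of mice after 4 days of dextran sulfate sodium (DSS) was compared with the colon of untreated mice, gene by gene, on 11 of the 23 arrays of a time course. DSS is a sulfated polymer of glucose, toxic to the lining of the large bowel when animals drink it. The day 4 group was 6 C57BL/6J mice, 12 to 14 weeks old, that drank 3% DSS for 4 days, and the day 0 group was 5 mice of the same strain and age range that drank none. The animals of the 2 groups are different mice of separate cohorts, 1 array each, and they were chosen by the day in the sample title. The other 12 arrays came from mice after 2 and 6 days of DSS, and they entered the fit to share 1 estimate of the spread. Total RNA was hybridised to Affymetrix Mouse Genome 430 2.0 arrays, on which the signal of a probe set is a brightness on a linear scale. Which stretch of colon was used, and at what hour, is not stated in the labels.

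The colon wall is an epithelium of absorptive colonocytes, mucus-filled goblet cells and hormone-secreting cells, renewed from stem cells at the crypt base, over a lamina propria of fibroblasts, vessels and immune cells, and an outer muscle coat that holds the enteric nerve plexus. Fibroblasts supply the matrix and also the Wnt agonists and bone morphogenetic protein (BMP) antagonists that keep the crypt base proliferative. DSS colitis is known for barrier loss first and for neutrophil infiltration with ulceration later.

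The colon was recognisable on every array. Epcam, a pan-epithelial adhesion molecule, read 17470.4 to 20323 on the day 4 arrays (median 19048), against 19313 to 21413 on the day 0 arrays. Muc2, the gel-forming mucin of goblet cells, read 25250.1 to 29572 at day 4 and 25933 to 28286 at day 0, and Car1, a carbonic anhydrase of colonocytes, read 17223 to 21092 at day 4 and 19623 to 21410.5 at day 0. Myh11, the smooth muscle myosin heavy chain, read 14194 to 19526 at day 4 and 9489 to 13033 at day 0. S100a8, a defining neutrophil gene, read 69.6 to 319 at day 4 and 73.7 to 193 at day 0, and these ranges overlap.

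RNA of tissues next to the colon differed between the groups. Krt10, a keratin of cornified squamous epithelium, read 349.8 on the array of day 4 mouse 8, at least 7014 on each of the other 5 day 4 arrays, and 2537 to 4182 on the day 0 arrays. Acta1, skeletal muscle actin, read 351 on day 4 mouse 8, at least 7540.1 on each of the other 5, and 3095 to 6504 at day 0. The summed signal of 20 squamous markers was 1189.7 on day 4 mouse 8 and 27575 to 42544 on the other 5 day 4 arrays, against 9731 to 17678 on the day 0 arrays. For 17 skeletal muscle markers the sums were 4481 on day 4 mouse 8 and 42108 to 95147 on the other 5, against 15212 to 31882 at day 0. Thus 5 of 6 day 4 arrays lay above every day 0 array in both lists and 1 lay below every one. In the whole series 4 arrays stood apart in such RNA, day 4 mouse 8, day 2 mice 6 and 8 and day 6 mouse 1, and without them 1627 genes were higher at day 4 and 558 lower. None of the 20 squamous and 17 skeletal muscle members passed the test. The part of this RNA in the results was not tested. Day 4 mouse 8 had the least of it, and 3948 of 12463 genes (31.7%) lay above every day 0 array on that array and 1899 (15.2%) below. The share above was over that of all genes for enteric neurons (23 of 26), smooth muscle (17 of 19), endothelium (15 of 24) and fibroblasts (11 of 20). It was near or under that of all genes for matrix proteases (6 of 18, with 5 of 18 below), BMP signalling (5 of 17, with 6 of 17 below), fibrillar collagens (3 of 13) and hedgehog signalling (2 of 11).

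**Figure D1:**
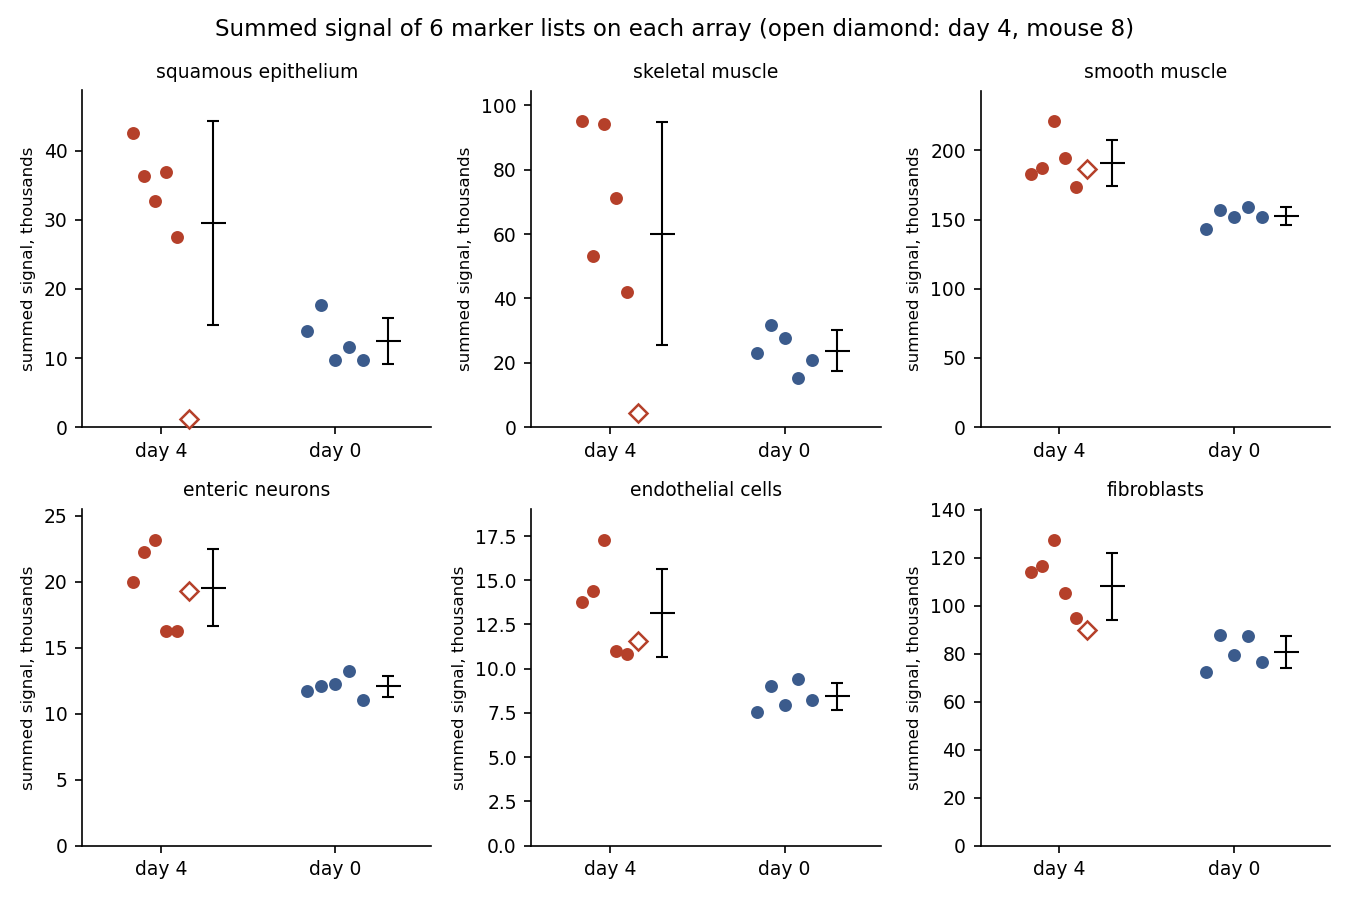
Summed signal (axis divided by 1000) of the measured members of 6 marker lists, 1 point per array, day 4 (n = 6) left of day 0 (n = 5), with mean and SD beside the points. The open diamond is day 4 mouse 8, which is lowest of all arrays for squamous epithelium and skeletal muscle and above every day 0 array for the other 4 lists.

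Control probe sets also differed. The log2 ratio of 3′ to 5′ beta-actin signal, which is higher where RNA is more degraded or reverse transcription shorter, was 0.611 ± 0.064 at day 4 and 0.426 ± 0.017 at day 0 (SD, n = 6 and 5), a difference of 0.18 (two-sided exact permutation p = 0.00433). The Gapdh ratio was 0.18 higher at day 4 and the mean log2 signal of 18 hybridization control probe sets was 0.40 lower (exact p = 0.00216 each, the smallest the design allows). Adjusted over these 3 measures the p-values were 0.00433, 0.00325 and 0.00325. The groups did not overlap in any of the 3, so these measures and the day of DSS cannot be told apart. With the hybridization control level as a covariate 139 genes were higher and 32 lower, and with the beta-actin ratio 53 were higher and 27 lower.

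Of 12463 genes tested, 1504 were higher at day 4 (12.1%) and 539 lower (4.32%) at an adjusted p of 0.05 or less in limma. Every count of list members that rose or fell at day 4 stands beside these 2 shares. Signals of all 6 day 4 arrays lay above all 5 day 0 arrays for 948 genes (7.61%) and below them for 305 genes (2.45%). A log2 change is the difference between the group means of log2(signal + 16), day 4 minus day 0, given with its standard error (SE), and it understates the change of dim genes. For several named dim genes the log2 change moves by over 1.5 times with the pseudocount, as for Il6 (1.04 with 64 and 3.56 with 1). Among these are Il6, Calhm6, Elavl3, Cemip, Upk3b, Cxcl2, Cxcl9, Gpm6a, Mmp10 and Erg. Most changes were small, with 77 of the higher genes at least 2-fold up and 37 of the lower genes at 1/2 of the day 0 level or less. The median log2 change over all genes was 0.06. Increases were 73.6% of the calls with the brightest probe set of each gene, and 55.8% where all probe sets of a gene were averaged (1202 higher, 952 lower). In these bulk samples fewer cells of a type and less RNA per cell cannot be told apart, and the same holds for more.

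**Figure D2:**
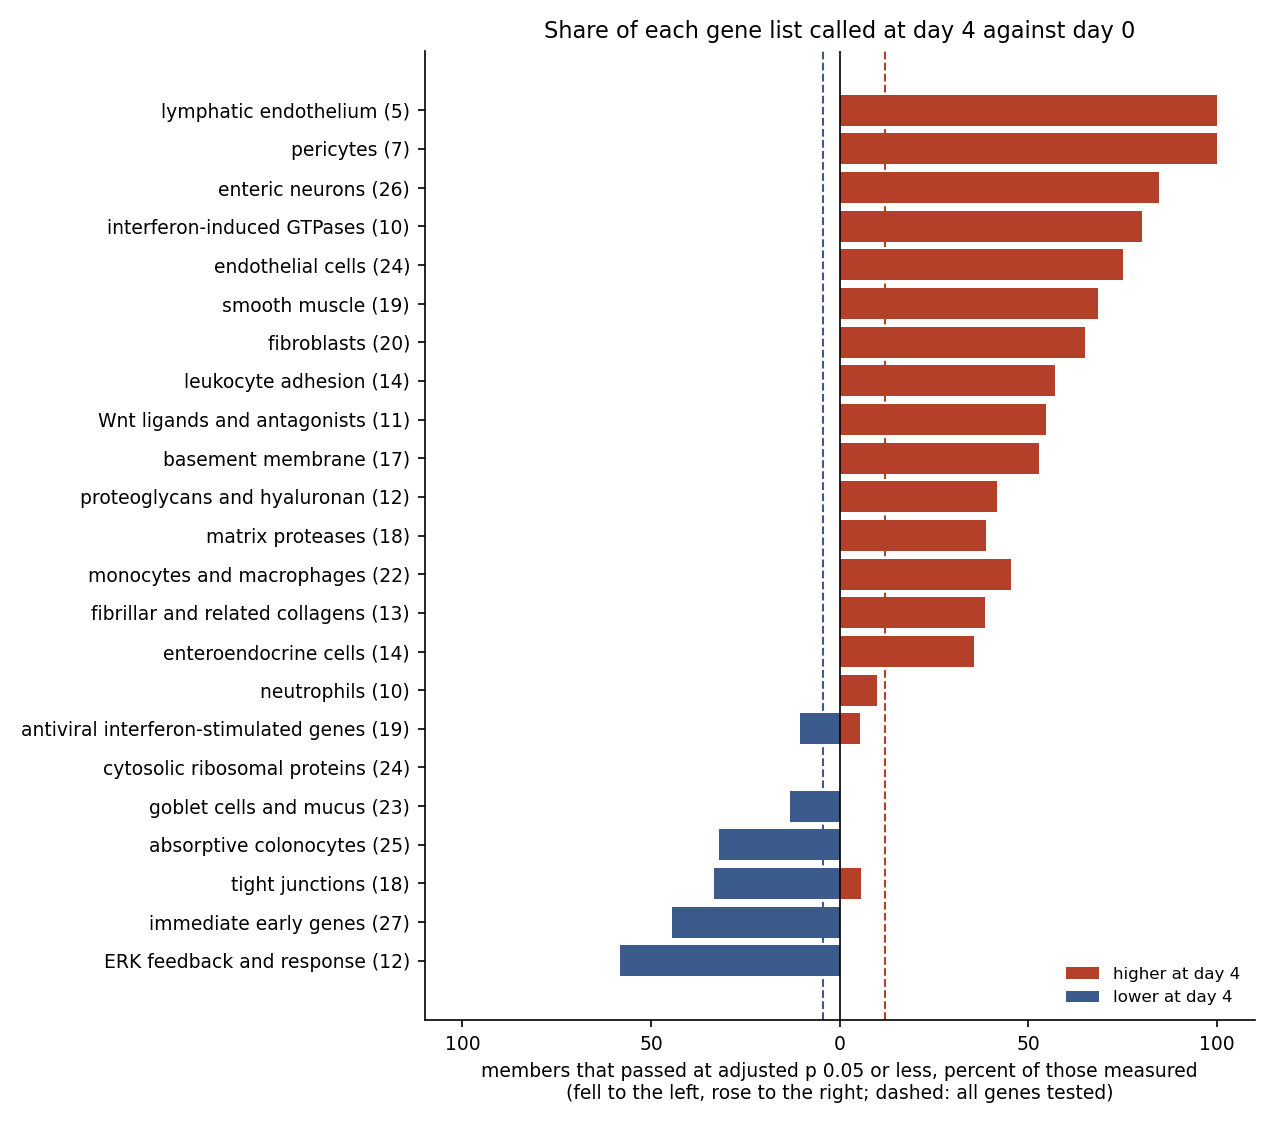
Share of the measured members (number in brackets) of 23 gene lists called at a limma adjusted p up to 0.05, rose to the right and fell to the left; dashed lines give the shares over all genes, 12.1% and 4.32%. Stromal, vascular and neural lists lie to the right, and colonocyte, tight junction, immediate early and ERK response lists to the left.

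Matrix-degrading enzymes gave the largest increase of all genes whose groups did not overlap. Mmp3 (stromelysin-1), a fibroblast protease that cleaves proteoglycans and activates other metalloproteinases, read 247 to 825 on the day 4 arrays (median 589), against 86.2, 138, 74.1, 67.1 and 78.6 on the day 0 arrays (log2 change 2.39 ± 0.27, adjusted p = 1.41e-05). Its lowest day 4 array exceeded its highest day 0 array, and the call held under each alternative setting run. Mmp10 (stromelysin-2) read 108 to 577 on the day 4 arrays (median 254) and 58.1, 40.3, 36.5, 56.8 and 79.8 at day 0 (log2 change 1.97 ± 0.35, adjusted p = 0.000761). Mmp13, a collagenase, read 128 to 1026 on the day 4 arrays (median 459) and 174, 115, 100.01, 111 and 167 at day 0, where the ranges overlap (log2 change 1.60 ± 0.39, adjusted p = 0.00712). Mmp2, the gelatinase of mesenchymal cells, rose by 0.80 ± 0.17. Of 18 measured matrix proteases 7 rose and 0 fell (median log2 change 0.36), and 4 rose without day 4 mouse 1.

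Mmp3, Mmp10 and Mmp13 lie in 1 cluster on chromosome 9, and their promoters are shown because all 3 hold the AP-1 motif TGAGTCA close to the start of transcription. The windows of 300 bases, 250 before to 50 after the start, are RefSeq's for build GRCm38.p6, read 5′ to 3′ on the plus strand, with the motif or its reverse complement in capitals.
Mmp3, chr9:7445572-7445871: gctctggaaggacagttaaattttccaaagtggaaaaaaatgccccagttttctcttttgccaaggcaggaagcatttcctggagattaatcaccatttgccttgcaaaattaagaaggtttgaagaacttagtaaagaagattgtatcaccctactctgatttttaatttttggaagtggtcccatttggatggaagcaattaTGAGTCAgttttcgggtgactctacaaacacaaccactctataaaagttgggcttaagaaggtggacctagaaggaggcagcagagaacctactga
Mmp10, chr9:7502092-7502391: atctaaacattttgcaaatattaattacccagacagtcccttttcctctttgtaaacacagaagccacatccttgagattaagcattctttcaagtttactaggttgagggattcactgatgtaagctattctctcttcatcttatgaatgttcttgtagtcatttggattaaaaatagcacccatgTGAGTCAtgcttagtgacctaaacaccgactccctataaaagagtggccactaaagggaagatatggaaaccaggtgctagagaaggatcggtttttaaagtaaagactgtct
Mmp13, chr9:7272264-7272563: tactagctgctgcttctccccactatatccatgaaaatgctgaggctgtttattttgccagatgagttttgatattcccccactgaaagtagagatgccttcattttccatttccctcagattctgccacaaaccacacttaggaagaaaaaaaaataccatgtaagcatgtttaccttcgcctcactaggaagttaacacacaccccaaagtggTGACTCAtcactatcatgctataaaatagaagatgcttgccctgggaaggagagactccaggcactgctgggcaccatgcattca
The motif begins 46 bases before the start in Mmp3, 63 bases before it in Mmp10 and 35 bases before it in Mmp13. On either strand it was in promoters of 5 of the 12 measured matrix proteases with a window in the table (Mmp3, Mmp7, Mmp10, Mmp12 and Mmp13), in none of the 21 immediate early genes with one, and in 5.2% of all 32851 windows. A match describes the letters and is not evidence of binding.

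Some inhibitors of proteases also rose. Timp1, a tissue inhibitor of metalloproteinases, read 247 to 450.4 on the day 4 arrays (median 324), against 239, 182, 125, 179.7 and 175 at day 0 (log2 change 0.88 ± 0.21, adjusted p = 0.00673). Serpina3n, a secreted serine protease inhibitor, read 445 to 759.8 on the day 4 arrays (median 719.9) and 128, 201, 222, 281 and 162 at day 0 (log2 change 1.63 ± 0.32, adjusted p = 0.00154). In both genes every day 4 array lay above every day 0 array. Among 11 protease inhibitors 5 rose and 0 fell, and 3 rose with probe sets averaged.

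Some matrix genes of the fibroblast were higher. Mgp, matrix Gla protein, a small protein that hinders calcification, read 3927 to 6248 on the day 4 arrays (median 5929), against 1861, 2393, 2351, 3132 and 3027 at day 0 (log2 change 1.15 ± 0.18, adjusted p = 0.000309). Lum, the collagen-binding proteoglycan lumican, read 3130.2 to 6474 on the day 4 arrays (median 5355) and 2841, 2645, 2334, 3281 and 3048 at day 0, with the ranges overlapping through day 4 mouse 8 (log2 change 0.87 ± 0.16, adjusted p = 0.000817). Fmod, the related fibromodulin, read 132 to 292 on the day 4 arrays (median 212) and 77.6, 86.7, 95, 67.5 and 94 at day 0 (log2 change 1.14 ± 0.18, adjusted p = 0.00034). Cemip, which promotes the breakdown of hyaluronan, read 77.7 to 162 on the day 4 arrays (median 107) and 26.7, 37.2, 25.9, 14.9 and 13.6 at day 0 (log2 change 1.71 ± 0.35, adjusted p = 0.00215). Thus Mgp, Fmod and Cemip did not overlap between the groups. Dcn, decorin, an abundant small proteoglycan of fibroblasts, read 8442 to 14490.3 at day 4 and 8094 to 11348 at day 0, with overlap, and did not pass (log2 change 0.26, adjusted p = 0.219). Ltbp3, a latent TGF-beta binding protein, rose by 0.73 ± 0.12 and Thbs2, the matricellular thrombospondin-2, by 0.66 ± 0.15.

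Of 20 fibroblast markers 13 rose and 0 fell, with a median log2 change of 0.46, and 14 rose without the 4 arrays whose neighbouring-tissue RNA stood apart. Of 12 proteoglycan and hyaluronan genes 5 rose and 0 fell (median 0.46), 7 did not pass, and 6 of 11 matricellular genes rose. Among 13 fibrillar and related collagens 5 rose and 0 fell (median 0.35), with no member free of overlap. Col5a2, a chain of type V collagen, rose by 0.51 ± 0.14 and Col6a3, of type VI collagen, by 0.35 ± 0.10, while the main chains Col1a1 and Col3a1 did not pass (0.44 with adjusted p = 0.153, and 0.19 with adjusted p = 0.174). The collagen count was 3 without day 0 mouse 5. The proteoglycan count was 3 under a stricter filter on low signals, which left fewer genes tested. Col18a1, a basement membrane collagen whose end fragment is endostatin, read 1288 to 1903 on the day 4 arrays (median 1491) and 666, 991, 745, 923 and 742 at day 0 (log2 change 0.88 ± 0.18, adjusted p = 0.00189). Of 17 basement membrane genes 9 rose, with 5 once day 0 mouse 5 was left out, 4 once day 4 mouse 4 was, and 5 with probe sets averaged.

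Most of the endothelial markers measured were higher, by a count that moved with single arrays. Sox17, an endothelial transcription factor, read 228 to 307 on the day 4 arrays (median 276), against 52.8, 117, 96.7, 127 and 94.3 at day 0 (log2 change 1.37 ± 0.20, adjusted p = 0.000219). Mmrn2, a matrix glycoprotein that endothelium secretes, read 569 to 1007 on the day 4 arrays (median 779) and 313, 333, 402, 369 and 292 at day 0 (log2 change 1.15 ± 0.16, adjusted p = 0.000153). Aplnr, the apelin receptor of sprouting vessels, read 789 to 1626 on the day 4 arrays (median 938) and 309.7, 478, 432, 401 and 469.6 at day 0 (log2 change 1.24 ± 0.18, adjusted p = 0.000219). In all 3 the groups did not overlap, and the highest Aplnr value was on day 4 mouse 4. The transcription factors Sox7 (1.18 ± 0.24) and Erg (1.12 ± 0.28) also rose, with overlapping ranges.

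Of 24 endothelial markers 18 rose and 0 fell, with a median log2 change of 0.63, beside 12.1% of all genes that rose. Leaving out day 0 mouse 1 gave 10, day 0 mouse 3 gave 11, day 4 mouse 3 gave 10 and day 4 mouse 4 gave 9. The count was 17 without the 4 arrays whose neighbouring-tissue RNA stood apart. Of 8 arterial markers 3 rose and 0 fell (1 rose without day 0 mouse 5 or day 4 mouse 1), and their summed signal was above every day 0 array on 1 of 6 day 4 arrays. Of 7 markers of venous and activated endothelium 4 rose and 0 fell, and their sum was above on 6 of 6. Among 22 angiogenic ligands and receptors 7 rose and 0 fell, and 4 rose without day 0 mouse 5 or day 4 mouse 1. Nrp1, a co-receptor for VEGF and semaphorins, read 1277 to 2099 on the day 4 arrays (median 1606) and 906, 945, 783, 952 and 925 at day 0 (log2 change 0.81 ± 0.13, adjusted p = 0.000345). Ramp2, which makes the calcitonin receptor-like protein a receptor for adrenomedullin, rose by 0.65 ± 0.13.

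All 5 measured lymphatic markers rose, by a median of 0.84, beside 12.1% of all genes that rose. Of these markers 4 lay above day 0 without overlap, beside 7.61% of all genes. Mmrn1, a secreted glycoprotein of lymphatic endothelium, read 765 to 1331 on the day 4 arrays (median 1021), against 373, 458, 447, 658 and 481 at day 0 (log2 change 1.05 ± 0.18, adjusted p = 0.000538). Reln, reelin, which lymphatic endothelium secretes, read 534 to 1076 on the day 4 arrays (median 890.2) and 339, 437, 451, 511 and 332 at day 0 (log2 change 0.99 ± 0.17, adjusted p = 0.000519). Pdpn, podoplanin, is shared by lymphatic endothelium and fibroblasts, and it read 828 to 1389 on the day 4 arrays (median 1245) and 590.5, 726, 686, 669 and 592 at day 0 (log2 change 0.84 ± 0.14, adjusted p = 0.000345). Flt4, the receptor for VEGF-C, rose by 0.72 ± 0.15 on its brightest probe set, a call that was lost where its probe sets were averaged.

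All 7 measured pericyte markers rose too (median 0.51). Mcam, an adhesion molecule of pericytes and endothelium, read 949.9 to 1333 on the day 4 arrays (median 1032) and 559, 613, 584, 596 and 648 at day 0 (log2 change 0.83 ± 0.11, adjusted p = 6.75e-05). Abcc9, the regulatory subunit of the vascular potassium channel, read 2366 to 2640.5 on the day 4 arrays (median 2482) and 1368, 1567, 1408, 1678 and 1457 at day 0 (log2 change 0.74 ± 0.11, adjusted p = 0.000195). Both groups of values were tight and far apart. Pdgfrb, the receptor that recruits pericytes, rose by 0.62 ± 0.11. Leaving out day 0 mouse 3 or 5, or day 4 mouse 1 or 4, each reduced the number of risen pericyte markers to 4, as did averaging of probe sets.

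Vessel-wall molecules that catch leukocytes were higher at day 4. Vcam1, a ligand for monocyte and lymphocyte integrins, read 521 to 924 on the day 4 arrays (median 583), against 222, 317, 337, 359 and 205 at day 0 (log2 change 1.12 ± 0.20, adjusted p = 0.000813). Madcam1, the gut-homing addressin, read 151 to 337 on the day 4 arrays (median 266) and 139, 123, 138, 112 and 135 at day 0 (log2 change 0.82 ± 0.22, adjusted p = 0.0123). Icam1 rose by 0.69 ± 0.18 and the junctional molecule Jam2 by 0.79 ± 0.13, and none of these 4 overlapped between the groups. Selp, P-selectin, read 129.7 to 314 on the day 4 arrays (median 216) and 64, 75.7, 113, 56.8 and 96 at day 0 (log2 change 1.26 ± 0.30, adjusted p = 0.00609), and that call was lost where its probe sets were averaged. Of 14 leukocyte adhesion genes 8 rose and 0 fell, with 5 rising without day 4 mouse 4.

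Several Wnt agonists and antagonists rose, and a few Wnt targets fell. Rspo3, an R-spondin that strengthens Wnt signalling at the crypt base, read 546 to 824 on the day 4 arrays (median 653), against 304, 373, 284, 315 and 209 at day 0 (log2 change 1.13 ± 0.16, adjusted p = 0.000188). The secreted Wnt antagonists Sfrp1 (0.89 ± 0.14) and Frzb (0.77 ± 0.17) rose as well, Sfrp1 only on its brightest probe set and not with probe sets averaged. Of 11 Wnt ligands, agonists and antagonists 6 rose and 0 fell. Axin2, a target that epithelial Wnt signalling induces, read 329 to 659 on the day 4 arrays (median 441) and 802, 752, 882, 746 and 669 at day 0 (log2 change -0.75 ± 0.15, adjusted p = 0.00184). Lgr5, the R-spondin receptor of crypt stem cells and itself a Wnt target, read 144 to 192 on the day 4 arrays (median 153) and 247, 208, 220.3, 319.7 and 259 at day 0 (log2 change -0.61 ± 0.19, adjusted p = 0.0295). Thus the ligand Rspo3 lay above its day 0 values on every day 4 array, and Axin2 and Lgr5 lay below theirs. The Lgr5 call was lost without day 0 mouse 1, 4 or 5 or day 4 mouse 3 (adjusted p up to 0.0829), and of 18 stem cell genes and Wnt targets 3 fell and 0 rose, a count of 1 once day 0 mouse 1 or 5 or day 4 mouse 3 was left out.

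The secreted BMP antagonists Chrdl2 and Chrdl1 rose, and Id1 and Smad7 fell. Chrdl2 is outside the list of 17 BMP pathway genes counted below. It was named as being among the largest increases of all genes without overlap, so its rise was fixed by that choice. Chrdl2, chordin-like 2, a secreted BMP antagonist, read 269.6 to 471 on the day 4 arrays (median 381), against 117, 135, 62.3, 128 and 106 at day 0 (log2 change 1.67 ± 0.18, adjusted p = 1.16e-05). It was among the 5 of 121 genes called and named here that kept the call under each alternative setting, with Mmp3, Ltbp3, Igfbp4 and Igfbp5. Chrdl1, a related antagonist, rose by 0.68 ± 0.13, and Bmp1, a protease that cleaves chordin and procollagens, by 0.79 ± 0.17. Id1, a target that BMP signalling induces, read 3180.5 to 4682 on the day 4 arrays (median 3364) and 9395, 8478, 8616, 6981 and 6989 at day 0 (log2 change -1.12 ± 0.16, adjusted p = 0.000195). Smad7, an inhibitory Smad induced by BMP and TGF-beta, read 522 to 674 on the day 4 arrays (median 628) and 1161, 1112, 1186, 882 and 954 at day 0 (log2 change -0.76 ± 0.12, adjusted p = 0.000293). Both fell with no overlap. Among 17 BMP pathway genes 5 rose and 3 fell, the number that rose being 3 without day 0 mouse 5 and 2 with probe sets averaged.

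Hedgehog and TGF-beta genes of the mesenchyme showed smaller changes. Gas1, a hedgehog co-receptor, read 1459.7 to 3553 on the day 4 arrays (median 2669.7), against 1362, 1682, 1254, 1394 and 1191 at day 0, with overlap (log2 change 0.89 ± 0.17, adjusted p = 0.00136). Foxf1, a mesenchymal transcription factor induced by hedgehog, rose by 0.48 ± 0.10 on its brightest probe set and did not pass with probe sets averaged. Tgfbr3, betaglycan, read 2930.3 to 3263 on the day 4 arrays (median 2964) and 1687, 2050.1, 1818, 2283 and 1649.6 at day 0, with no overlap (log2 change 0.69 ± 0.13, adjusted p = 0.00087). In the hedgehog list 3 of 11 rose and 1 fell, and in the TGF-beta list 4 of 14 rose, beside 12.1% and 4.32% of all genes. With probe sets averaged 2 of the 14 rose, and 1202 of all 12463 genes.

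**Figure D3:**
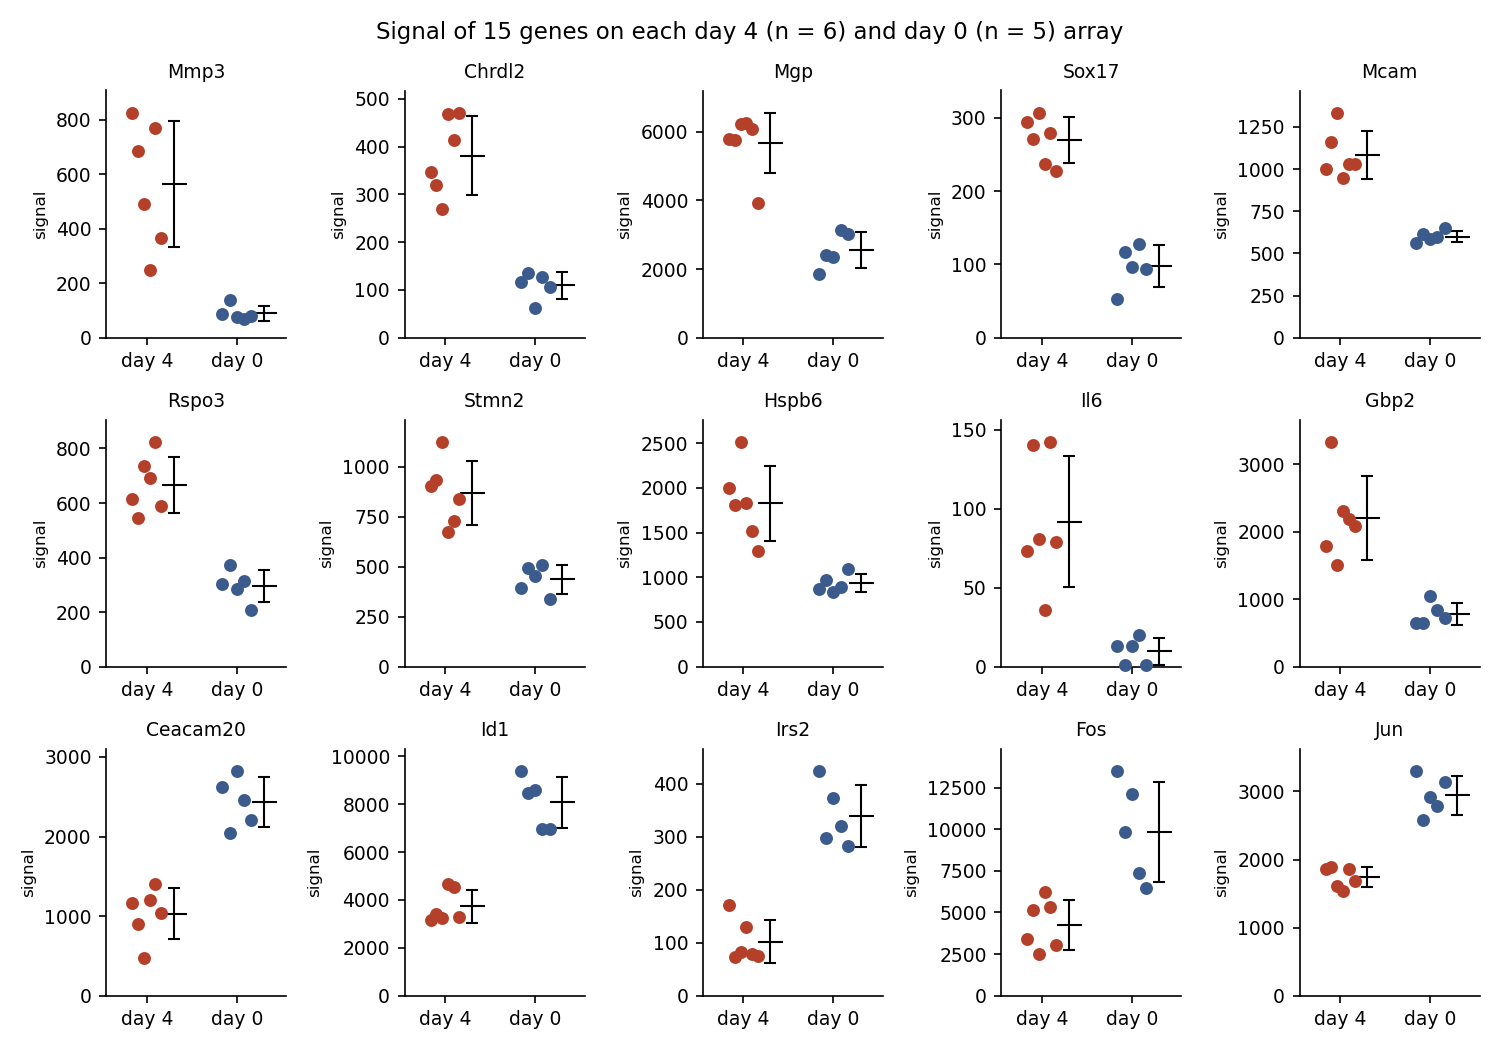
Signal of 15 genes on each array, 1 point per mouse, day 4 left of day 0, with mean and SD beside the points. None of the 15 overlaps between the days, and Ceacam20, Id1, Irs2, Fos and Jun are the ones lower at day 4.

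Genes of the muscle coat and of its nerves were higher at day 4. Hspb6, a small heat shock protein of muscle, read 1295 to 2513 on the day 4 arrays (median 1821), against 867, 969.9, 838, 896 and 1093 at day 0 (log2 change 0.93 ± 0.16, adjusted p = 0.000519). Lmod1, the smooth muscle leiomodin that nucleates actin, read 841 to 1167 on the day 4 arrays (median 1006) and 598, 669, 759, 666 and 688 at day 0 (log2 change 0.55 ± 0.14, adjusted p = 0.0078). Of 19 smooth muscle markers 13 rose and 0 fell, with a median of 0.37, beside 12.1% of all genes that rose. Above day 0 without overlap lay 14 of the 19, beside 7.61% of all genes. The number that rose was 7 without day 4 mouse 4 and 12 without the 4 arrays whose neighbouring-tissue RNA stood apart. Hspb6 is also expressed in skeletal muscle, and on day 4 mouse 8, whose skeletal muscle signal was lowest, it read 1295. Kit, the receptor of the interstitial cells of Cajal that pace the gut, read 1429 to 2161 on the day 4 arrays (median 1765) and 1761, 1931, 2162, 2104 and 1935 at day 0 and did not pass (log2 change -0.15 ± 0.12, adjusted p = 0.415).

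Enteric neuron markers had the highest share of risen members among the lists of over 10 genes described here. Of 26 markers 22 rose and 0 fell, with a median log2 change of 0.71, and 20 to 24 rose with any single array left out. Stmn2, a microtubule regulator of neurons, read 674 to 1125 on the day 4 arrays (median 872), against 392, 494, 452, 511 and 339.6 at day 0 (log2 change 0.96 ± 0.14, adjusted p = 0.000199). Nos1, the nitric oxide synthase of inhibitory motor neurons, read 578 to 780.5 on the day 4 arrays (median 739) and 431, 459, 387, 415 and 251 at day 0 (log2 change 0.87 ± 0.20, adjusted p = 0.00426). Elavl3, a neuronal RNA-binding protein, read 64.4 to 160.0 on the day 4 arrays (median 127) and 26.2, 18.5, 71.6, 47.5 and 10 at day 0, with overlap at 1 day 0 array (log2 change 1.53 ± 0.34, adjusted p = 0.00389). Stmn2 and Nos1 did not overlap. Syt1, the calcium sensor of synaptic vesicles, rose by 0.84 ± 0.12 on its brightest probe set and not with probe sets averaged. Epha7, an ephrin receptor of axon guidance, rose by 0.87 ± 0.17.

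Of 8 glial markers 2 rose and 0 fell, with a median log2 change of 0.32 over the list, and 1 rose without day 0 mouse 2 or 3 or day 4 mouse 1 or 7. Cryab, a small heat shock protein of glia and muscle, was the higher of them and read 1440.4 to 2746 on the day 4 arrays (median 2116), against 1077, 1039, 993, 1206 and 1026 at day 0 (log2 change 0.93 ± 0.23, adjusted p = 0.00861).

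Mesothelial genes, which mark the serosal surface, rose from low levels. Upk3b, a uroplakin of mesothelium, read 132 to 236 on the day 4 arrays (median 168), against 96.9, 51.4, 12.1, 9.23 and 71.5 at day 0 (log2 change 1.75 ± 0.40, adjusted p = 0.00444). Gpm6a, a membrane glycoprotein of mesothelium and neurons, read 147 to 273 on the day 4 arrays (median 214) and 73.8, 91.9, 31.7, 95.1 and 52.3 at day 0 (log2 change 1.46 ± 0.26, adjusted p = 0.000818). Each day 4 array exceeded each day 0 array in both. Of 3 measured mesothelial markers 2 rose, and on day 4 mouse 8 all 3 lay above day 0. Muscle, nerve plexus and serosa all belong to the outer wall. The summed signals of smooth muscle, enteric neuron and mesothelial markers lay above every day 0 array on 6 of 6 day 4 arrays. Other lists of the outer wall did so less widely, with glial markers above on 2 of 6 arrays and genes of synaptic vesicle release on 3 of 6, while the 2 markers of interstitial cells of Cajal, the pacemaker cells of gut muscle, were above on 0 of 6 and below every day 0 array on 2. Of 11 genes of synaptic vesicle release 3 rose and 0 fell. The part that the share of outer wall in each piece of tissue had in these increases was not tested.

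Few pan-epithelial genes passed, and a subset of colonocyte genes fell. Of 19 simple keratins and pan-epithelial genes 1 fell and 0 rose, and Krt8 read 22759 to 26293 at day 4 and 24170.0 to 25984 at day 0. The sum of these 19 was 150084, 154219 and 150539 on day 4 mice 1, 3 and 4. It was 173979, 168159 and 171108 on mice 6, 7 and 8, and 167513 to 184315 at day 0. Of 25 colonocyte markers 8 fell and 0 rose, with a median of -0.33, beside 4.32% of all genes that fell. Their sum was 145458, 132915 and 104284 on day 4 mice 1, 3 and 4. It was 172961, 190760 and 171972 on mice 6, 7 and 8, and 184105 to 203962 at day 0. What set these mice apart was not tested. Ceacam20, an adhesion molecule of the luminal membrane, read 468 to 1405 on the day 4 arrays (median 1103), against 2623, 2044, 2824, 2462 and 2208 at day 0 (log2 change -1.29 ± 0.24, adjusted p = 0.00101). Aqp8, a water channel of surface colonocytes, read 1428 to 6276 on the day 4 arrays (median 4096) and 7548, 7752, 8215, 8079 and 7983 at day 0 (log2 change -1.11 ± 0.28, adjusted p = 0.00863). Cdkn1a, the cell cycle inhibitor p21 of differentiated cells, read 1729.6 to 3576 on the day 4 arrays (median 2450.5) and 4836, 4142, 5215, 3864 and 4847 at day 0 (log2 change -0.88 ± 0.14, adjusted p = 0.00034). In all 3 the highest day 4 array lay below the lowest day 0 array. Slc26a3, the chloride-bicarbonate exchanger of the same cells, read 8502 to 19854 at day 4 and 12752 to 17894 at day 0 and did not pass (log2 change 0.01, adjusted p = 0.98). Of colonocyte markers 5 fell once day 0 mouse 4 or day 4 mouse 3 was left out, 4 once day 0 mouse 5 or day 4 mouse 4 was, and 14 once day 4 mouse 7 was.

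Genes that regulate sodium uptake and paracellular tightness were among those that fell. Sgk1, a kinase that raises sodium transport, read 2734 to 3984 on the day 4 arrays (median 3203), against 4682, 7998, 8137, 7193 and 6500.4 at day 0 (log2 change -1.05 ± 0.24, adjusted p = 0.00477). Slc9a2, a sodium-hydrogen exchanger, read 1476 to 2774 on the day 4 arrays (median 2277) and 3214, 3251, 3239, 2926 and 3648 at day 0 (log2 change -0.55 ± 0.13, adjusted p = 0.00656). Cldn23, a claudin of colonocytes, read 724 to 1704 on the day 4 arrays (median 1061) and 2822, 1869, 2433, 2044 and 1914 at day 0 (log2 change -1.003 ± 0.18, adjusted p = 0.00069). These 3 did not overlap between the groups. Cldn4 fell by 0.81 and Ocln, occludin, by 0.43 on the log2 scale, both with overlap, and Cldn7 by 0.24 without it. Of 18 tight junction genes 6 fell and 1 rose, Cldn1, a claudin also of squamous epithelium, being the one that rose (log2 change 1.15 ± 0.39, adjusted p = 0.0425). The Cldn1 call was lost with quantile normalization, with median centring, without a filter on low signals and without any 1 of 9 arrays (adjusted p up to 0.107). It read 88.2 on day 4 mouse 8, within the day 0 range of 52.7 to 103. Of 28 water and ion transport genes 5 fell and 1 rose, beside 4.32% and 12.1% of all genes. Without day 0 mouse 3 or 5 the number that fell was 3. With probe sets averaged it was 8, and 952 of all 12463 genes fell.

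Few mucus genes passed. Of 23 goblet cell genes 3 fell and 0 rose, a count of 1 once day 0 mouse 5 or day 4 mouse 1 or 3 was left out, and of 5 once day 4 mouse 6 was or probe sets were averaged. Spdef, the transcription factor of goblet cell maturation, read 962 to 1895 on the day 4 arrays (median 1276), against 1532, 1684, 2698, 3036 and 2146 at day 0 (log2 change -0.69 ± 0.20, adjusted p = 0.0184), a call lost without day 0 mouse 3 or 4 (adjusted p up to 0.06). Ang4, a microbicidal ribonuclease, read 503 to 15472 on the day 4 arrays (median 892) and 13849.8, 4011, 2342, 4357 and 13637 at day 0 (log2 change -2.09 ± 0.64, adjusted p = 0.0271). The array of day 4 mouse 6 read above all day 0 arrays and the other 5 lay at or below 2361, and the call was lost without day 0 mouse 1 or 5, without day 4 mouse 1, 3 or 4 (adjusted p up to 0.0822), with days 0 and 4 fitted alone and without the 4 arrays whose neighbouring-tissue RNA stood apart. Muc4, a membrane-bound mucin, read 1116 to 1870.5 on the day 4 arrays (median 1522) and 1962, 2044, 2210.0, 2432 and 2226 at day 0, with no overlap (log2 change -0.54 ± 0.13, adjusted p = 0.00567). Mep1a, a protease of the brush border, fell by 0.61 on the log2 scale with overlap.

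Some genes of hormone-producing cells were higher. Of 14 enteroendocrine genes 5 rose and 0 fell (median 0.35), with 3 rising without day 0 mouse 5, beside 12.1% of all genes that rose. Gcg, the precursor of glucagon-like peptides, read 3138 to 4111 on the day 4 arrays (median 3491), against 2015, 2495, 2619, 3142 and 2161 at day 0 (log2 change 0.52 ± 0.13, adjusted p = 0.00797). Scg5, a chaperone of the prohormone convertase of secretory granules, rose by 0.53 ± 0.15, and both genes overlapped between the groups.

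The largest decreases without overlap included several genes outside the lists. Gprin3 read 44 to 209 on the day 4 arrays (median 74.2), against 363, 373, 329.7, 309 and 403 at day 0 (log2 change -1.93 ± 0.36, adjusted p = 0.000987), with its highest day 4 value on mouse 1. Cpm, carboxypeptidase M, a membrane enzyme that trims peptides, read 395 to 742 on the day 4 arrays (median 461) and 1525, 1875, 1535, 1039 and 1528 at day 0 (log2 change -1.49 ± 0.20, adjusted p = 6.92e-05). Cpn1, the secreted carboxypeptidase N catalytic chain that inactivates complement peptides, read 59.2 to 242 on the day 4 arrays (median 115) and 301, 304, 338, 440.4 and 627 at day 0 (log2 change -1.54 ± 0.33, adjusted p = 0.00324). Each of these 3 lay wholly below day 0. Genes outside the lists were named for being among the largest decreases without overlap, so this was fixed by that choice. Also lower without overlap were 2310079G19Rik (-1.65 ± 0.37), Bnip5 (-1.39 ± 0.19) and Prdm2 (-1.17 ± 0.15), a histone methyltransferase, of which Prdm2 had another probe set that moved the opposite way (0.29).

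Genes that growth factor signalling induces within the hour were lower at day 4. Hbegf, a ligand of the EGF receptor, read 168 to 493 on the day 4 arrays (median 243), against 3919.5, 892, 1485, 729.6 and 519 at day 0 (log2 change -2.07 ± 0.38, adjusted p = 0.000983), with the top value on day 0 mouse 1. Fos read 2496 to 6244 on the day 4 arrays (median 4273) and 13498, 9831, 12124, 7367 and 6467 at day 0 (log2 change -1.23 ± 0.25, adjusted p = 0.00217), and Jun, its partner in the AP-1 factor, read 1541 to 1890.5 on the day 4 arrays (median 1766) and 3300.4, 2573, 2914, 2784 and 3142 at day 0 (log2 change -0.75 ± 0.12, adjusted p = 0.000329). Junb read 546 to 827 on the day 4 arrays (median 686) and 3551, 1548, 1548, 923 and 1233 at day 0 (log2 change -1.22 ± 0.24, adjusted p = 0.00153). None of these 4 overlapped between the groups. Egr1, a zinc finger factor of the same class, read 1309.9 to 4859 on the day 4 arrays (median 2466) and 20038, 10068, 10992, 2880.3 and 2139 at day 0, with overlap (log2 change -1.44 ± 0.42, adjusted p = 0.022). The Egr1 call was lost without day 0 mouse 1, 2 or 3 (adjusted p up to 0.0818), with days 0 and 4 fitted alone and without the 4 arrays whose neighbouring-tissue RNA stood apart. Of 27 immediate early genes 12 fell and 0 rose, with a median of -0.51, and 7 fell without day 0 mouse 1. On day 4 mouse 8 alone, 21 of 27 lay below every day 0 array, against 1899 of 12463 over all genes (15.2%).

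Feedback inhibitors of the EGF receptor and ERK pathway fell with them. Errfi1, an inhibitor of EGF receptors, read 1661 to 2477 on the day 4 arrays (median 2220.0), against 9195, 3439.9, 5447, 3998 and 2876 at day 0, with no overlap (log2 change -1.08 ± 0.22, adjusted p = 0.00217). Phlda1 fell by 0.94 on the log2 scale with overlap. Of 12 ERK feedback and response genes 7 fell and 0 rose (median -0.60), a count of 4 once day 0 mouse 1 or 3 or day 4 mouse 1 was left out. Trib1, a pseudokinase, read 264 to 677 on the day 4 arrays (median 494) and 1663, 875, 1736, 1250.0 and 768 at day 0, with no overlap (log2 change -1.33 ± 0.26, adjusted p = 0.00143). Of the EGF receptor ligands and receptors only Hbegf fell and only Btc, betacellulin, rose of 9 measured. Btc read 354 to 502 on the day 4 arrays (median 461) and 331, 304, 322, 298 and 279 at day 0 (log2 change 0.48 ± 0.12, adjusted p = 0.0105).

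Insulin and insulin-like growth factor (IGF) genes changed in opposite directions. Irs2, a docking protein of the insulin and IGF receptors, read 73 to 172 on the day 4 arrays (median 80.8), against 425, 298, 373, 321 and 283 at day 0 (log2 change -1.64 ± 0.23, adjusted p = 0.000166). Igfbp4, an IGF-binding protein of the mesenchyme, read 7675 to 9916 on the day 4 arrays (median 8919) and 4416, 5184, 4887, 4661 and 4088 at day 0 (log2 change 0.93 ± 0.10, adjusted p = 1.16e-05). Igfbp5, another, read 3758 to 5697 on the day 4 arrays (median 4587) and 2154, 2737, 2322, 2889 and 2262 at day 0 (log2 change 0.91 ± 0.15, adjusted p = 0.000455). The groups of all 3 stood well apart. Of 20 genes in the list 5 rose and 2 fell, 3 rising with probe sets averaged.

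Some clock genes differed, in opposite phases. Dbp, an output factor of the circadian clock, read 890.3 to 3384 on the day 4 arrays (median 1911), against 360.5, 494, 846, 1841 and 574 at day 0, with overlap (log2 change 1.43 ± 0.37, adjusted p = 0.0114). Arntl, whose transcript peaks about opposite to Dbp, read 392 to 725 on the day 4 arrays (median 586) and 955, 1130.1, 1121, 637 and 872 at day 0, with overlap (log2 change -0.75 ± 0.17, adjusted p = 0.00516). Per3 (1.16 ± 0.25) and Nr1d2 (0.60 ± 0.13) rose on their brightest probe sets, and neither passed with probe sets averaged. Of 10 genes that peak with Dbp 4 rose and 0 fell (2 rising with probe sets averaged), and of 5 that peak with Arntl 2 fell and 0 rose. The day 4 mice were uneven. Dbp read 1368, 890 and 1368 on mice 1, 3 and 4, and 3384, 2454 and 3316 on mice 6, 7 and 8. The summed signal of the 10 genes exceeded every day 0 array on mice 6, 7 and 8 and not on mice 1, 3 and 4.

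Some macrophage genes were higher at day 4. Mpeg1, the pore-forming perforin-2 of macrophages, read 1246 to 2213 on the day 4 arrays (median 1541), against 631, 846, 875, 831 and 615 at day 0 (log2 change 1.08 ± 0.18, adjusted p = 0.000374). Aif1, a calcium-binding protein of macrophages, read 187 to 387 on the day 4 arrays (median 255) and 88.3, 159, 103, 140.4 and 114 at day 0 (log2 change 1.04 ± 0.21, adjusted p = 0.00194). Gpnmb, a glycoprotein of macrophages, read 262 to 810.3 on the day 4 arrays (median 569) and 171, 147, 191, 206 and 85 at day 0 (log2 change 1.69 ± 0.27, adjusted p = 0.000376), and Calhm6, a channel protein of activated macrophages, read 34.7 to 127 on the day 4 arrays (median 85.6) and 18.5, 7.14, 5.46, 18.4 and 3.42 at day 0 (log2 change 1.86 ± 0.41, adjusted p = 0.00358). In these 4 no day 4 array fell within the day 0 range. Gpnmb and Calhm6 are outside the list of monocyte and macrophage genes counted below. Both were named as being among the largest increases of all genes without overlap, so their lack of overlap was fixed by that choice. Cd68, a lysosomal protein, rose by 0.88 ± 0.22 and Ms4a6d, a membrane protein of monocytes, by 0.93 ± 0.26. Of 22 monocyte and macrophage genes 10 rose and 0 fell, with a median of 0.52 and 8 to 12 rising with any single array left out. Of all genes 12.1% rose. The summed signal of the list was above every day 0 array on 4 of 6 day 4 arrays. On day 4 mouse 8, 8 of 22 members (36.4%) lay above every day 0 array, beside 31.7% of all genes.

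Of 10 neutrophil genes 1 rose and 0 fell, with a median log2 change of 0.52, and their summed signal was 841 to 1712 on the day 4 arrays (median 1214), against 524 to 878 on the day 0 arrays. The one that rose was Lcn2, lipocalin-2, which epithelium also makes, and it read 124 to 439 on the day 4 arrays (median 270.5), against 44.2, 87.5, 81.5, 108 and 129 at day 0, with overlap (log2 change 1.47 ± 0.36, adjusted p = 0.00724). No member passed among 4 T cell, 12 B and plasma cell or 8 MHC class II genes, whose list medians were -0.20, -0.16 and 0.24.

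Cytokine changes were few, and some genes of the IL-6 family were higher. Il6, an inflammatory cytokine that fibroblasts and macrophages secrete, read 35.6 to 142 on the day 4 arrays (median 79.7), against 12.9, 1.24, 13.1, 20.1 and 1.03 at day 0 (log2 change 2.04 ± 0.32, adjusted p = 0.000329). The levels were low in both groups, with array medians of 97.3 to 121 in the series, and they did not overlap. Il6 passed the filter on low signals only through the brighter day 6 arrays (mean 780 ± 355, SD). Osmr, the oncostatin M receptor of stromal cells, read 741 to 1145 on the day 4 arrays (median 964) and 556, 445, 495, 575 and 524 at day 0 (log2 change 0.87 ± 0.15, adjusted p = 0.000656). Socs3, a feedback inhibitor that STAT3 induces, read 505 to 1243 on the day 4 arrays (median 939) and 511, 316, 384, 305 and 261 at day 0, with overlap (log2 change 1.22 ± 0.22, adjusted p = 0.00091). Of 15 cytokines 4 rose and 0 fell, and Il33, an alarmin of stromal nuclei, rose by 0.88 ± 0.20. Of 13 genes of the IL-6 family 4 rose, 2 with probe sets averaged. None of the 12 NF-kappaB and 10 Toll-like receptor genes passed in either direction.

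A few chemokines were higher. Cxcl9, an interferon-gamma-induced attractant of T cells, read 100.30 to 550.0 on the day 4 arrays (median 206), against 47.8, 16.8, 46.5, 52.3 and 61 at day 0 (log2 change 2.05 ± 0.44, adjusted p = 0.00312). Ccl8, an attractant of monocytes, read 903 to 1771 on the day 4 arrays (median 1246) and 545, 535, 451, 362 and 424 at day 0 (log2 change 1.41 ± 0.22, adjusted p = 0.000309). Cxcl2, an attractant of neutrophils, read 50.2 to 218 on the day 4 arrays (median 76) and 38.4, 37.4, 29.6, 21.8 and 23.3 at day 0 (log2 change 1.23 ± 0.33, adjusted p = 0.0134). None of the 3 overlapped between the groups. Of 12 CXC chemokines 3 rose and of 13 CC chemokines 2 rose and 1 fell, beside 12.1% and 4.32% of all genes. The CC chemokine that fell no longer passed once day 0 mouse 1, 2 or 5 or day 4 mouse 4, 6, 7 or 8 was left out.

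Some acute phase and antimicrobial genes were higher. Saa3, an acute phase apolipoprotein that local cells make, read 361 to 1320.5 on the day 4 arrays (median 580.3), against 222, 145, 96.1, 129 and 279 at day 0 (log2 change 1.83 ± 0.38, adjusted p = 0.00243). Lrg1, a leucine-rich glycoprotein, read 272 to 386 on the day 4 arrays (median 322) and 105, 246, 95.2, 130.0 and 165 at day 0 (log2 change 1.13 ± 0.26, adjusted p = 0.00513). Reg3b, an antibacterial lectin of epithelium, read 4354 to 18561 on the day 4 arrays (median 11688) and 5189, 2749, 1818, 785 and 6720.5 at day 0, with overlap (log2 change 1.95 ± 0.46, adjusted p = 0.00633). Saa3 and Lrg1 did not overlap. Of 11 acute phase genes 5 rose and 0 fell, counts that ran from 4 to 6 for the rise with any single array left out. Of 9 antimicrobial lectins and peptides 3 rose and 1 fell, with no member free of overlap, and 0 fell without day 0 mouse 1 or 5 or day 4 mouse 1, 3 or 4. The acute phase sum was above every day 0 array on 0 of 6 day 4 arrays and below every one on 3, and the antimicrobial sum was above on 1 and below on 0.

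Interferon-induced GTPases were higher at day 4. Iigp1, an immunity-related GTPase that attacks the vacuoles of parasites, read 819 to 2718 on the day 4 arrays (median 1072), against 356, 289, 517, 378 and 329 at day 0 (log2 change 1.68 ± 0.39, adjusted p = 0.0055). Gbp2, a guanylate-binding protein, read 1499.9 to 3326 on the day 4 arrays (median 2137) and 643, 649, 1044, 843 and 717 at day 0 (log2 change 1.46 ± 0.29, adjusted p = 0.00143). Gbp6 read 349 to 1039.5 on the day 4 arrays (median 475) and 157, 132, 266, 219 and 205 at day 0 (log2 change 1.35 ± 0.34, adjusted p = 0.00864), and Irgm2, a regulator of such GTPases, read 783 to 1722 on the day 4 arrays (median 986) and 304, 462, 502, 585 and 413 at day 0 (log2 change 1.23 ± 0.27, adjusted p = 0.0032). All 4 lay above day 0 without overlap. Of 10 interferon-induced GTPases 8 rose and 0 fell, with a median of 1.19. Nlrc5, the activator of MHC class I genes, rose by 1.19 ± 0.22 and Tap1, its target that carries peptides to class I molecules, by 0.99 ± 0.22.

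Few antiviral genes that type I interferon induces passed. Of 19 such genes 1 rose and 2 fell (median 0.11). Irf7, the factor that amplifies type I interferon, read 592 to 1303 on the day 4 arrays (median 763), against 1303, 1159, 1699.8, 1655 and 1819 at day 0, with overlap (log2 change -0.85 ± 0.21, adjusted p = 0.0072). Oasl1, an inhibitor of Irf7 translation, fell by 0.82 on the log2 scale, a call lost without day 0 mouse 4 (adjusted p = 0.0579). Ifit3, an antiviral protein, rose by 0.71 ± 0.23, a call lost without day 0 mouse 1, 2, 3 or 5 or day 4 mouse 7 or 8 (adjusted p up to 0.0878) and without the 4 arrays whose neighbouring-tissue RNA stood apart. The difference between the 2 classes was not tested.

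Promoters of Gbp2 and Irgm2 are shown because both hold the core of the interferon-stimulated response element, GAAANNGAAA, close to the start of transcription. They are RefSeq windows of build GRCm38.p6, read 5′ to 3′ on the plus strand, with the match in capitals.
Gbp2, chr3:142620413-142620712: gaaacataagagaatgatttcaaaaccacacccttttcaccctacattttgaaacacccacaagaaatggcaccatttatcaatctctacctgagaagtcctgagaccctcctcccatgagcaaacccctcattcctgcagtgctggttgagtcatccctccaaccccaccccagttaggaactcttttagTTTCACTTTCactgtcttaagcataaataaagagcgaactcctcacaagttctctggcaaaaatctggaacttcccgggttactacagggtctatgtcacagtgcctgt
Irgm2, chr11:58214727-58215026: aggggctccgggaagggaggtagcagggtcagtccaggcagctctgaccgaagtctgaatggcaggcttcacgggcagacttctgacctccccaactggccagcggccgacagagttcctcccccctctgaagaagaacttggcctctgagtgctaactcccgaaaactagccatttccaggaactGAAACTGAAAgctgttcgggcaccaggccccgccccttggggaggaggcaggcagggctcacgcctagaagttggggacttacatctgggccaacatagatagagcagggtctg
On either strand the core was in promoters of 6 of 7 GTPases with a window, starting 59 bases before the start in Gbp2 and 64 in Irgm2. It was in 9 of 15 antiviral genes with a window and in 3.44% of all windows.

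**Figure D4:**
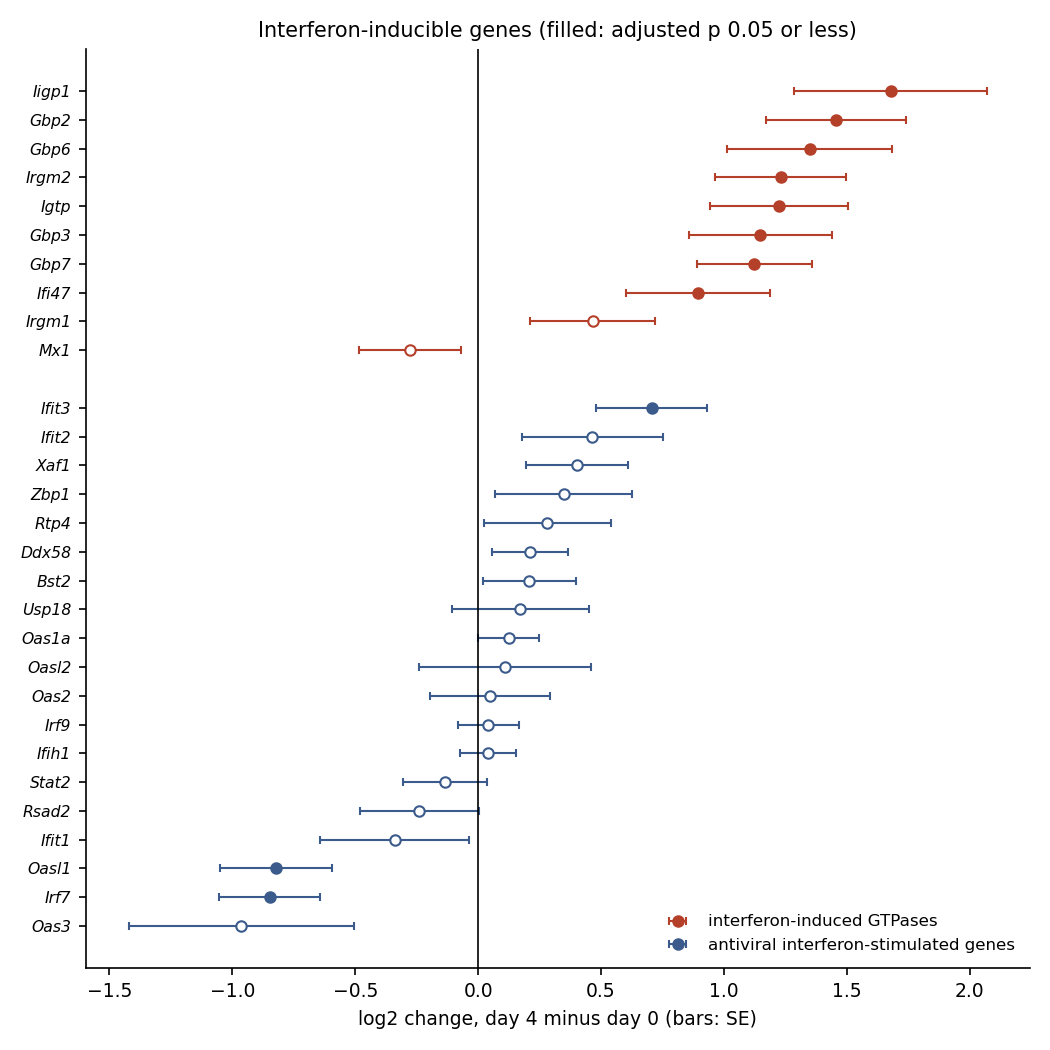
Log2 change at day 4 against day 0 with its SE for 10 interferon-induced GTPases (upper block) and 19 antiviral interferon-stimulated genes (lower block). Filled points had an adjusted p up to 0.05: 8 GTPases to the right of 0, and in the antiviral class Ifit3 to the right and Oasl1 and Irf7 to the left.

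Housekeeping lists moved little. Among 24 cytosolic ribosomal protein genes 0 rose and 0 fell (median 0.01), and of 26 proteasome genes 1 rose and 0 fell (median 0.01). None of 18 genes of cholesterol synthesis passed (median -0.18), but their day 0 arrays were uneven. The summed signal was 60666, 51735 and 50534 on day 0 mice 1, 2 and 5, and 36489 and 35609 on mice 3 and 4. At day 4 it was 38423 to 51165.

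Arrays of days 2 and 6 place these values in the course. Against day 2, 1176 genes were higher at day 4 (9.44%) and 510 lower (4.09%), and these counts ran from 526 to 1245 and from 190 to 608 with 1 array left out, lowest without day 4 mouse 4. Day 4 mice 1 and 3 also mattered, with 703 higher and 232 lower genes in the absence of the first and 676 and 237 in the absence of the second. From day 4 to day 6, 1133 genes were higher at day 6 (9.09%) and 1712 lower (13.7%). These contrasts share the day 4 arrays with the comparison above.

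Inflammatory genes were below their day 6 level. Mean signal of Saa3 was 174 ± 74.5 at day 0, 229.8 ± 49.8 at day 2, 676 ± 337 at day 4 and 6645 ± 4204 at day 6 (SD), with a log2 change from day 4 to day 6 of 3.09 (adjusted p = 5.85e-06). Cxcl2 stood at 30.1 ± 7.7, 25.9 ± 15.4, 102 ± 61.2 and 1528 ± 783 on days 0, 2, 4 and 6 (3.69 from day 4 to 6, adjusted p = 3.65e-07). Mmp3 stood at 88.8 ± 28.4, 176 ± 38.4, 565 ± 232 and 3632 ± 1434 (2.68, adjusted p = 1.3e-06). Higher at day 6 than day 4 were 10 of 10 neutrophil and 19 of 22 macrophage genes, beside 9.09% of all genes. The same held for 9 of 10 interferon-induced GTPases and 14 of 19 antiviral genes, including Irf7 (0.93, adjusted p = 0.00153). A probe set was kept if it exceeded the median on 5 arrays, so a dim gene could enter through the 6 day 6 arrays alone. Only 10 of 17 matched neutrophil genes were kept, and their count is in part set by that filter.

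Other changes were at their height on day 4 or had passed by day 6. Fmod stood at 84.2 ± 11.6, 99.8 ± 18, 209 ± 56.6 and 101 ± 23.3 on days 0, 2, 4 and 6 (-0.93 from day 4 to 6, adjusted p = 0.000468). Dbp stood at 823 ± 596, 2678 ± 511, 2130.0 ± 1075 and 610.4 ± 311 (-1.74, adjusted p = 0.00109), and 6 of the 10 genes that peak with it were lower at day 6 than day 4. Junb, lower at day 4 than at day 0, was higher again at day 6 (1.01, adjusted p = 0.00272), as were 10 of the 27 immediate early genes. Smooth muscle markers were lower at day 6 than day 4 in 12 of 19 (8 at the least when 1 array was left out), beside 13.7% of all genes. Of 26 enteric neuron markers 3 were lower at day 6 than day 4 and 1 higher, which is near the share of all genes, and 7 were lower without day 4 mouse 6 and 6 without day 4 mouse 7. Stmn2 (-0.34, adjusted p = 0.0664) and Hspb6 (-0.17, adjusted p = 0.459) did not pass from day 4 to day 6. For Stmn2 that p crossed the threshold under 6 alternatives, among them day 4 mouse 6 or 7 left out (adjusted p = 0.0339 and 0.0492).

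**Figure D5:**
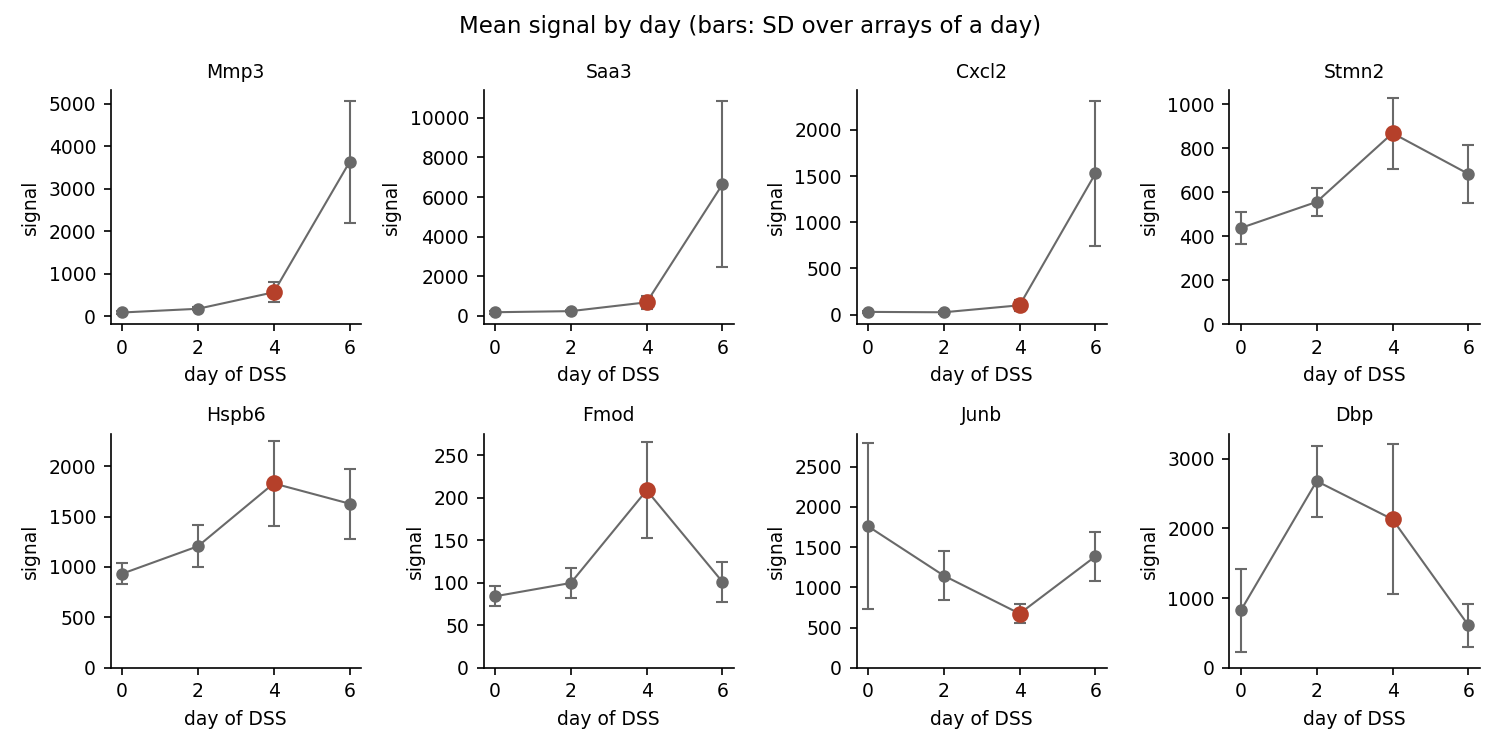
Mean signal of 8 genes on days 0, 2, 4 and 6 of DSS, with the SD over the arrays of a day (n = 5, 6, 6 and 6) and day 4 in red. Mmp3, Saa3 and Cxcl2 are highest at day 6, Stmn2, Hspb6 and Fmod at day 4, and Junb is lowest at day 4.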

How the data were processed

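Per the labels, each array held total RNA from the colon of 1 mouse, and groups were taken from the day in the sample titles. Probe set intensities, linear, were deposited as the authors computed them. MAS5 is named in the submitters' processing notes, without a version. Each array's mean was 500 once 2% of values was trimmed from both ends, medians lay between 97.3 and 121, and no further normalization was applied. The number of arrays limits the precision. The p-values set each group difference against the spread between arrays, 1 per animal. That spread holds differences between animals, tissue pieces and labelling, which cannot be told apart.

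Of 45101 probe sets 64 were controls. The platform annotation gave 1 symbol for 34945, several for 932 and none for 9160, and only the first were named. Kept were probe sets above their own array's median on at least 5 arrays, and the brightest per gene was used (12463 genes, 5546 with more than 1 probe set). For 438 called genes the kept probe sets differed in sign. Signals were tested as log2(signal + 16) with limma (version 3.58.1, R version 4.3.3; lmFit, then eBayes using the mean-variance trend) over all 23 arrays, two-sided, with Benjamini-Hochberg adjustment over all genes. In simulated data for day 4 against day 0 (12463 genes), 85.0% of genes given a log2 change of 1 and 96.0% of those given 2 were called. Of 192 simulated calls 11 were false (5.73%). The simulation changed 200 genes and drew the noise of each gene independently. These shares thus leave out differences between arrays that many genes have in common.

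The members and the 88 gene lists (1533 entries, 1425 matched, 1178 genes measured) were chosen with earlier results of these data known. Eosinophils and red blood cells had no measured member. Genes named are the 15 largest increases and decreases without overlap, and up to 4 passing members per list or, where none passed, the 1 with the lowest p, of which the text leaves some out. Genes such as Col1a1, Krt10 and Epcam are defining markers. Alternatives were the pseudocount, normalization, filter, probe set averaging, days 0 and 4 alone, array weights, the mouse number as a block, 2 technical covariates and leaving out each array. Leaving out 4 arrays (mouse 6 and mouse 8 of day 2, mouse 8 of day 4, mouse 1 of day 6), and the fit without the trend, were added after seeing the data. Mouse numbers 1, 3 and 4 occur at both days. They were not used as a pairing, because the animals are of separate cohorts. The correlations of their deviations were 0.08, -0.08 and -0.03. Whether a shared factor lies behind a number was not tested.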

Additional observations from a re-analysis of the deposited data

Results flagged for a closer look

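In 21 of 244 groups of arrays (122 genes, each at day 4 and at day 0), 1 array stood apart from the others of its day by Dixon's test, which chance does in about 1 of 20 groups. The distances were as follows.

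At day 4, mouse 8 was lowest for 2 matrix genes, Mgp (3927, next 5751) and Lum (3130.2, next 5222). Mouse 4 was highest for Aplnr (1626, next 1099), Bmp1 (574, next 487) and Lgr5 (192, next 157). Mouse 3 was highest for Egr1 (4859, next 2552) and for the interferon-induced GTPases Iigp1 (2718, next 1521) and Gbp6 (1039.5, next 605). Mouse 1 was highest for Il33 (783, next 486) and Gprin3 (209, next 84.2), mouse 7 for Cldn4 (706, next 426) and Saa3 (1321, next 713), and mouse 6 for Ang4 (15472, next 2361).

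At day 0, mouse 1 was highest for Hbegf (3920, next 1485), Junb (3551, next 1548) and Cldn4 (1071, next 713) and lowest for Ocln (2581, next 3186). Mouse 4 was highest for Per3 (292, next 156) and Ifit3 (575, next 335), mouse 2 for Mmp3 (138, next 86.2), and mouse 3 was lowest for Nrp1 (783, next 906).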

How the results depend on the processing

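The counts at day 4 against day 0 were 1104 to 1837 higher and 444 to 740 lower under changes of pseudocount, normalization, filter, array weights, days 0 and 4 alone, the 4 arrays left out and no trend, and 1092 to 1499 higher and 373 to 563 lower without 1 array. With probe sets averaged 952 genes were lower, and 133 of 2043 calls changed sign. With the hybridization control covariate 139 were higher and 32 lower, and with the beta-actin covariate 53 and 27. With the replicate block 1252 were higher and 461 lower. For day 4 against day 2 the counts were 722 and 308 with median centring, 63 and 24 with the replicate block, 43 and 13 with the hybridization control covariate, 8 and 21 with the beta-actin covariate, and 526 to 1245 and 190 to 608 without 1 array. For day 6 against day 4 they were 668 and 851 with the beta-actin covariate, and 982 to 1141 and 1423 to 1698 without 1 array. The cause was not tested. Without 1 array the day 4 differences of the control measures were 0.166 to 0.201 for the beta-actin ratio, 0.157 to 0.192 for the Gapdh ratio and -0.431 to -0.366 for the hybridization controls. Of 121 named genes that passed, 114 kept the call without each single array. No named gene changed direction. Dim probe sets near background limit Il6, Calhm6, Elavl3, Cemip, Upk3b and Cxcl2, whose log2 changes with pseudocounts of 64 and 1 were 1.04 and 3.56, 0.95 and 2.98, 0.92 and 2.02, 1.01 and 2.27, 1.11 and 2.27, and 0.75 and 1.59 in that order. Cxcl9, Gpm6a, Mmp10 and Erg also moved with the pseudocount. Il6, Calhm6, Elavl3, Cemip and Cxcl2 had results under 23 alternative settings, against 25 for Mmp3. The filter on low signals dropped them in the others. Il6, Calhm6 and Cxcl2 passed the main filter only with the help of day 6 arrays.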

Other observations

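Gene groups outside the comparisons above gave these values at day 4 against day 0, where 12.1% of all genes rose and 4.32% fell. Of 13 complement genes 5 rose and 0 fell, with a median log2 change of 0.48, and 3 rose without day 0 mouse 3 or day 4 mouse 1. Of 7 dendritic cell genes 2 rose and 0 fell (median 0.45). Of 26 genes of xenobiotic metabolism 2 rose and 2 fell (median -0.11). Of 22 unfolded protein response genes 0 rose and 1 fell (median -0.03), and of 13 heat shock protein genes 2 rose and 1 fell. Adipoq, the adipocyte hormone adiponectin, read 41.9 to 788 on the day 4 arrays (median 202), against 353 to 2488 on the day 0 arrays, and it did not pass (log2 change -2.08, adjusted p = 0.115). Of 9 adipocyte genes 0 rose and 1 fell.

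The cell cycle list gave an unstable count, and its day 0 arrays were uneven. The summed signal was 49977, 46219 and 43480.5 on day 0 mice 1, 2 and 5, and 30626 and 30757 on mice 3 and 4. At day 4 it was 30793 to 38691. Of 35 genes 3 fell and 1 rose, with a median of -0.30, and the number that fell was 0 without day 0 mouse 1, 2 or 5 or day 4 mouse 1, 1 without day 4 mouse 3 or 7, 9 without day 0 mouse 3 and 8 without day 0 mouse 4. From day 4 to day 6, 12 of these genes were higher at day 6 and 0 lower.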
